A study of Mus musculus with 8 samples.

Results

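Messages between an oocyte and the granulosa cells around it travel by secreted proteins and through gap junctions, and 7 genes of that exchange were examined. Gdf9, Bmp15, Oosp1 and Oosp2 encode proteins that oocytes secrete, and Gja4, Gja1 and Gjc1 encode connexins. They were chosen by name, and each was found by its symbol among the 21959 genes of a table of 8 RNA sequencing libraries from mouse oocytes at postnatal day 1. Of the 8, 4 came from wild-type mice and 4 from mice labelled as Rbpms2 knockout, with no other allele or agent named for either genotype. Rbpms2 encodes an RNA-binding protein. All ovaries went through the same dissociation with collagenase and trypsin, and 5 to 10 cells that looked like primordial oocytes were picked by mouth pipette into each tube before 18 cycles of amplification. The sources used here do not give the strain, the deleted stretch of Rbpms2 or the number of animals. Since no label ties the tubes to separate animals, a p-value here speaks of tube-to-tube spread, possibly of technical origin.

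GDF9 and BMP15 are related growth factors of the TGF-beta superfamily. The oocyte makes them as precursors that are cleaved by proprotein convertases, and granulosa cells receive them through type I and type II receptors that act on SMAD proteins, which controls follicle growth and cumulus cell function. OOSP1 and OOSP2 are small secreted proteins of the oocyte. Connexins form channels that join neighbouring cells: the product of Gja4 (connexin 37) makes the channels at the oocyte surface, that of Gja1 (connexin 43) the channels among granulosa cells, and that of Gjc1 is connexin 45. Nutrients, and cyclic GMP that keeps meiosis arrested in later follicles, pass into the oocyte through the connexin 37 channels. At birth, mouse oocytes are leaving germ cell cysts to be enclosed in primordial follicles.

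Values are FPKM, fragments per kilobase of exon scaled to the library's total, a unit that allows levels to be compared between genes. The fragments counted per library, recovered from the steps of the values, ran from 8321943 to 11941360 in wild type and from 9564417 to 14542894 in knockout. Rbpms2 itself (ENSMUSG00000032387, chromosome 9 from 65629648 to 65660528 in GRCm38) had 158.1, 167.4, 135.8 and 212.8 FPKM in wild type and 38.4, 58.3, 31.0 and 42.5 FPKM in knockout. Its RNA was thus lower in every knockout library but not at 0. Of 6 germ cell markers (Ddx4, Dazl, Dppa3, Sycp3, Mael and Tex101), 5 were higher and 1, Dppa3, was lower in knockout, and their mean log2(FPKM + 1) was 6.88 to 7.68 in wild type and 8.02 to 8.88 in knockout, so RNA of germ cells was present in all 8 libraries. Of the 11235 genes with at least 1 FPKM in 4 or more libraries, 43.4% differed between genotypes (limma, Benjamini-Hochberg adjusted p under 0.05), 25.6% lower and 17.7% higher in knockout. That share is the background for every count below. The median log2 fold change over all these genes was -0.12, and it was 0.04 after quantile scaling and 0.003 after median-of-ratios scaling.

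Among the 7 genes, 6 passed that minimum. Gdf9, Bmp15, Oosp2 and Gja4 fell in knockout, while Gja1 and Gjc1 did not pass the threshold. Oosp1 reached 1 FPKM in only 3 libraries and was not tested with the others. Bmp15, Oosp1, Oosp2 and Gja4 had no read in any knockout library. Among tested genes, which leave out Oosp1, 0.774% were in that state. Among all 21959 genes, 1592 were at 0 in every knockout library but seen in wild type. Gdf9, Bmp15, Oosp2, Gja4 and Gjc1 had no overlap between genotypes, as did 39.9% of the tested genes (24% lower and 15.9% higher in knockout). For the first 4, under 1 FPKM in every knockout library, the minimum itself required this. In tubes of pooled cells, fewer cells of a type and less RNA per cell cannot be told apart.

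**Figure D1:**
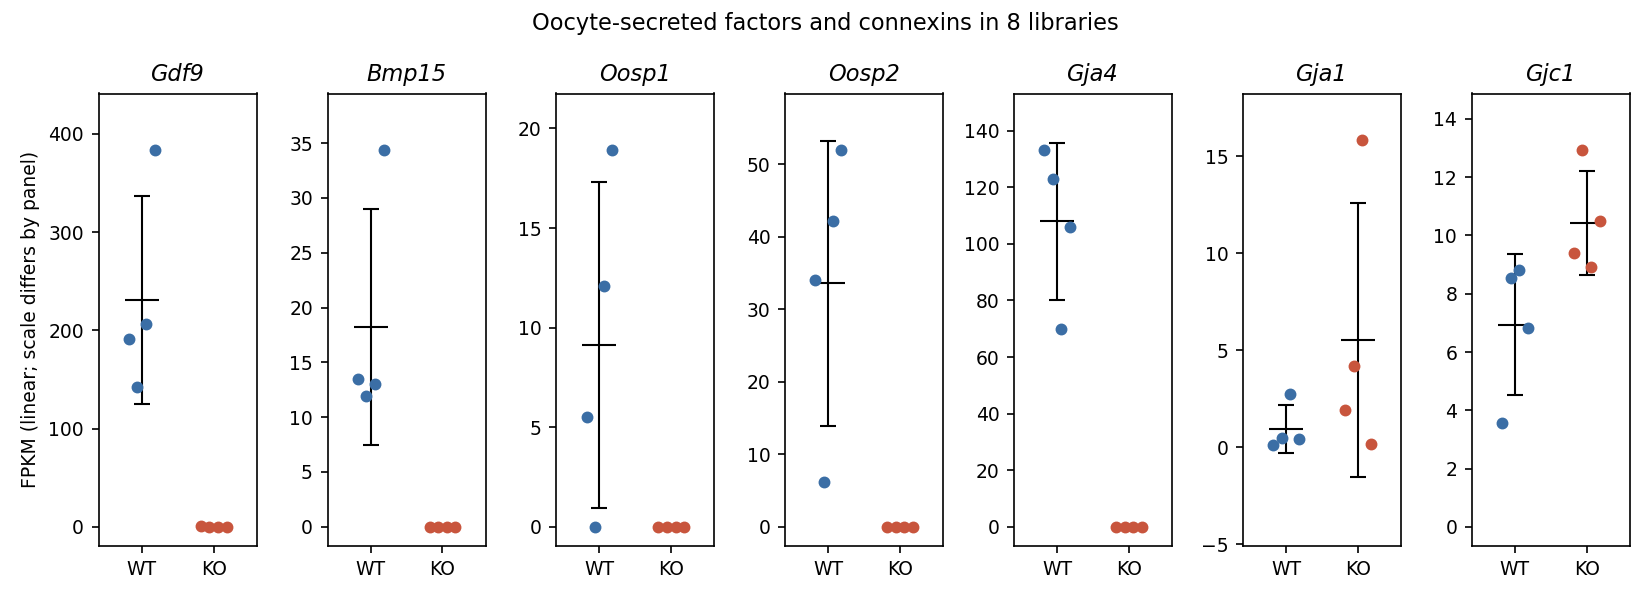
FPKM of the 7 genes in the 4 wild-type (WT) and 4 Rbpms2 knockout (KO) libraries, on linear axes whose scale differs by panel; each point is a library, the short horizontal line is the mean and the whiskers are 1 SD (n = 4). Gdf9, Bmp15, Oosp2 and Gja4 have separate genotypes with the knockout at or near 0, Oosp1 is at 0 also in 1 wild-type library, Gjc1 is somewhat higher in knockout without overlap, and Gja1 overlaps.

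Gdf9 was the most abundant of the 7 genes in wild-type oocytes and was nearly gone in knockout oocytes. The gene (ENSMUSG00000018238) lies on the plus strand of chromosome 11 from 53431023 to 53437904, in GRCm38 like all positions here. Its values in wild-type replicates 1 to 4 were 191.5, 142.1, 206.3 and 383.4 FPKM. In knockout, in the same order of numbers, they were 0.968, 0.0677, 0.331 and 0.0515 FPKM. The lowest wild-type library stood far above the highest knockout library. Those values came from 17528 reads over the wild-type group and 34 reads over the knockout group, of which knockout replicate 1 held 23. The means were 230.8 ± 105.4 FPKM (SD, n = 4) and 0.355 ± 0.429 FPKM (SD, n = 4), a 651-fold difference. On the log2(FPKM + 1) scale, which understates the change of genes near 0, Gdf9 fell by 7.37 (standard error 0.33, limma adjusted p = 1.83e-07). Only 7 of the 11235 genes had a larger fall on this scale, where the fall of a gene near 0 in knockout depends mostly on its wild-type level. The exact two-sided permutation test over the 70 ways to split the libraries gave p = 0.0286, the smallest that 4 against 4 allow. The same value held for Bmp15, Oosp2 and Gja4. All 4 genes were under 1 FPKM in every knockout library, so they could pass the minimum only by reaching it in all wild-type libraries. Once they had passed it, this p-value was fixed in advance and adds no evidence.

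Bmp15, the X-linked partner of Gdf9, fell to 0 reads. The gene (ENSMUSG00000023279) lies on the minus strand of chromosome X from 6314107 to 6320721. Its level was 13.5, 12.0, 13.0 and 34.4 FPKM in wild-type replicates 1 to 4, from 2068 reads in all, and it was 0 in the 4 knockout libraries. Wild-type replicate 4, the highest for Gdf9, was also the highest for Bmp15. Against a limit of 3 reads over the knockout group, which covers counting error only, the mean of 18.2 ± 10.8 FPKM (SD, n = 4) was at least 886-fold higher in wild type. The log2 fold change was -4.13 (standard error 0.34, limma adjusted p = 1.09e-05).

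The 2 growth factor genes kept a narrow proportion to each other among wild-type tubes. Gdf9 had 14.2, 11.9, 15.8 and 11.2 times the FPKM of Bmp15, a mean of 13.3 ± 2.14 (SD, n = 4), so that Gdf9 made up 92.9% ± 1.05 (SD, n = 4) of the summed level of the pair. With no read for Bmp15 in knockout, the proportion could not be followed there.

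Oosp2 and Oosp1 are neighbours, both on the minus strand of chromosome 19, and had the same loss of all reads. Oosp2 (ENSMUSG00000055895) spans 11647279 to 11660559 and Oosp1 (ENSMUSG00000041857) spans 11667460 to 11691150, with 6900 bases between them. Oosp2 had 34.0, 6.24, 42.1 and 51.9 FPKM in wild-type replicates 1 to 4, a mean of 33.6 ± 19.6 (SD, n = 4) from 851 reads, and 0 in the 4 knockout libraries. Wild-type replicate 2 was low for this gene, though not for Gja4. Oosp2 was at least 362-fold higher in wild type by the same 3-read limit, and its log2 fold change was -4.78 (standard error 0.54, limma adjusted p = 7.08e-05).

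Oosp1 had 5.51, 0, 12.1 and 18.9 FPKM in wild-type replicates 1 to 4, from 316 reads, and 0 in the 4 knockout libraries. The low wild-type library for Oosp2, replicate 2, was thus the wild-type library with no read of Oosp1, and the genotypes overlapped at 0. The mean of 9.12 ± 8.18 FPKM (SD, n = 4) was at least 141-fold higher in wild type, but the exact two-sided permutation test gave p = 0.143. Where Oosp2 and Oosp1 were both seen, Oosp2 had 6.16, 3.49 and 2.75 times the FPKM of Oosp1, in replicates 1, 3 and 4. A relative further along, Oosp3, which starts 5904 bases beyond Oosp1, had 0.814, 0.367, 0.288 and 1.61 FPKM in wild type and 0 in all 4 knockout libraries, too low to be tested. Plac1, an X-linked relative in the same protein family, had 11.3, 21.9, 3.99 and 2.50 FPKM in wild type and 1.53, 1.08, 0.181 and 0 FPKM in knockout. Plac1 fell without overlap, 14.2-fold by the means (log2 fold change -2.41, limma adjusted p = 0.00597), and was still read in 3 of 4 knockout libraries.

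Gja4 was the second most abundant of the 7 genes in wild-type oocytes and had no read in any knockout library. The gene (ENSMUSG00000050234) lies on the minus strand of chromosome 4 from 127311421 to 127314039. It had 133.1, 122.8, 70.03 and 106.0 FPKM in wild-type replicates 1 to 4, from 7216 reads. Replicate 3 was the lowest, and it was not the lowest for Gdf9, so the ratio of Gja4 to Gdf9 ran from 0.276 to 0.864 among wild-type tubes. By the limit of 3 reads over the group, the wild-type mean of 108.0 ± 27.7 FPKM (SD, n = 4) was at least 2894-fold higher. The log2 fold change was -6.73 (standard error 0.25, limma adjusted p = 3.65e-08), and 13 of the 11235 genes had a larger fall on that scale. By the ratio of means Gja4 fell more than Gdf9, at least 2894-fold against 651-fold. Endothelium also uses connexin 37. Knockout replicate 1 held RNA of endothelial markers (summed level of 10 markers 340.3 FPKM, against 3.40 to 7.66 in the other 7 libraries, with Cldn5 at 178.7), and Gja4 had 0 reads in that library too.

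Gjc1 was expressed at a modest level in both genotypes. The gene (ENSMUSG00000034520) lies on the minus strand of chromosome 11 from 102799579 to 102819700. It had 3.55, 8.55, 8.81 and 6.82 FPKM in wild-type replicates 1 to 4 and 9.40, 12.9, 8.93 and 10.5 FPKM in knockout replicates 1 to 4. Every knockout library was above every wild-type library, but the nearest pair, 8.81 and 8.93 FPKM, almost touched. The means of 6.93 ± 2.42 and 10.4 ± 1.79 FPKM (SD, n = 4 each) differed 1.51-fold. The log2 difference was 0.58, with a 95% interval from -0.06 to 1.21, and did not pass the threshold (limma adjusted p = 0.128). The exact permutation p was 0.0286, and 15.9% of the tested genes were likewise higher in knockout without overlap.

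Gja1 varied more between tubes of the same genotype, relative to its mean, than Gja4 or Gjc1. The gene (ENSMUSG00000050953) lies on the plus strand of chromosome 10 from 56377330 to 56402513. It had 0.0980, 0.471, 2.76 and 0.433 FPKM in wild-type replicates 1 to 4 and 1.93, 4.20, 15.9 and 0.183 FPKM in knockout replicates 1 to 4. The genotypes overlapped, since knockout replicate 4 lay below 3 of the 4 wild-type libraries. The means were 0.941 ± 1.22 and 5.54 ± 7.07 FPKM (SD, n = 4 each). The log2 difference of 1.28, with a 95% interval from -0.28 to 2.84, did not pass the threshold (limma adjusted p = 0.165, exact permutation p = 0.229). Without knockout replicate 4 the log2 difference was 1.89 (limma adjusted p = 0.0306).

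The 3 libraries highest in Gja1 were those with most RNA of granulosa and stroma markers. The 17 granulosa markers summed to 2.29, 9.26, 68.2 and 18.3 FPKM in wild type and to 17.6, 106.8, 490.5 and 15.9 FPKM in knockout. Gja1 was highest in knockout replicates 3 and 2 and wild-type replicate 3, the same 3 libraries that led in this sum. The 10 stroma markers summed to 110.8 FPKM in wild-type replicate 3 and to 420.5 and 394.4 FPKM in knockout replicates 2 and 3, against 12.4 to 48.6 FPKM in the other 5. The 11 immune markers were highest in knockout replicate 3 as well, at 462.5 FPKM against 7.52 to 57.5 FPKM elsewhere. Between 1 and 9 of the granulosa markers were at 0 in a library, and Fshr, the receptor for follicle-stimulating hormone, was at 0 in all 8. Without the 3 libraries, called rich in somatic markers below for these granulosa and stroma sums, the log2 difference of Gja1 was 0.49 (limma adjusted p = 0.431). Since these 3 were also the highest in Gja1 itself, leaving them out cannot show the source of its RNA. Knockout replicate 1, with 340.3 FPKM of endothelial markers, was still among the 5 left. The part of somatic RNA in the level of Gja1 was not tested further. Over the same 5 libraries Gdf9, Bmp15, Oosp2 and Gja4 were still called lower and Gjc1 was not called.

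**Figure D2:**
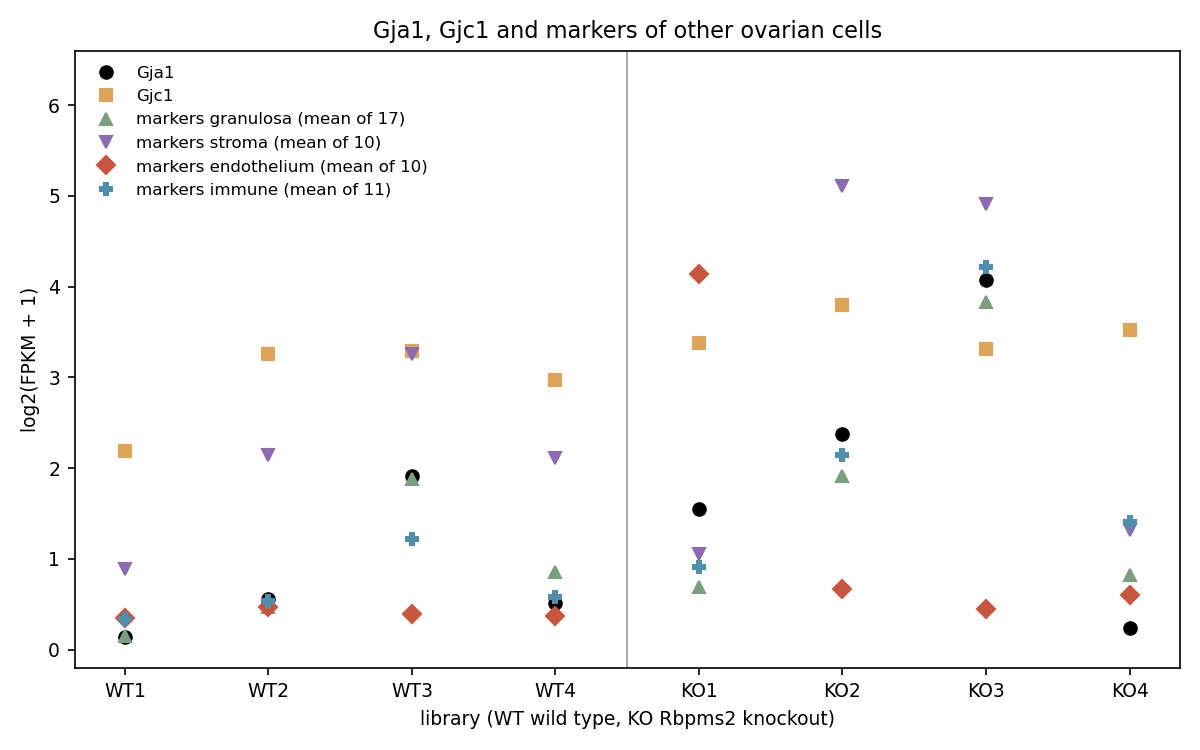
Gja1 and Gjc1 beside mean marker levels of other ovarian cell types in each library, as log2(FPKM + 1); each point is a library, or for a marker list the mean over its genes in that library. Gja1 and the granulosa, stroma and immune means have their highest points in KO3, KO2 and, within wild type, WT3, while the highest endothelial mean is in KO1 and Gjc1 is lowest in WT1.

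The order of levels among the 7 genes therefore differed between genotypes. In wild type it ran from Gdf9 through Gja4, Oosp2, Bmp15, Oosp1 and Gjc1 to Gja1. Gdf9, Gja4 and Oosp2 were separate from each other in every library. The ranges of Oosp2 and Bmp15, of Bmp15 and Oosp1, and of Oosp1 and Gjc1 overlapped between tubes. Within each tube Bmp15 was above Oosp1 in all 4 wild-type libraries. Oosp2 was above Bmp15, and Oosp1 above Gjc1, in only 3 of the 4. In knockout, Gjc1 led, followed by Gja1 with an overlapping range, Gdf9 came next, and the other 4 genes were at 0.

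The connexin pool of the tubes differed in size and in make-up. Summed over all 20 connexin genes in the table, connexin RNA was 140.3, 139.9, 83.4 and 124.8 FPKM in wild type and 11.8, 18.95, 31.5 and 16.8 FPKM in knockout. The lowest wild-type sum was well above the highest knockout sum, a 6.17-fold difference of the means of 122.1 ± 26.8 and 19.8 ± 8.35 FPKM (SD, n = 4 each; exact two-sided permutation p = 0.0286). Gja4 was 94.9%, 87.8%, 84.0% and 84.9% of the pool in the wild-type libraries and 0% in knockout. The smaller sum in knockout therefore mostly restates the absence of Gja4 reads, and its p-value adds no separate evidence. The pool without Gja4 was not tested. Gjc1 held 2.53% to 10.6% in wild type and 79.5%, 68.2%, 28.4% and 62.3% in knockout replicates 1 to 4 (exact permutation p = 0.0286, 0.0429 adjusted over the 3 shares compared). Without any 1 wild-type library the adjusted exact permutation p was 0.0571 to 0.0857 for the shares of both Gja4 and Gjc1. Shares of a whole depend on each other, and the rise in the share of Gjc1 went with a pool without Gja4, while its own FPKM did not pass the test. Gja1 was 0.0698% to 3.31% of the pool in wild type and 16.3%, 22.1%, 50.4% and 1.09% in knockout, with overlapping genotypes (exact permutation p = 0.0571, unchanged by adjustment). The difference of 21.5 percentage points in the share of Gja1 was 12.2 without knockout replicate 3, 28.6 without knockout replicate 4 (adjusted exact permutation p = 0.0286) and 8.43 without the 3 libraries rich in somatic markers.

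The leading connexin was Gja4 in all 4 wild-type libraries, with Gjc1 behind it. In knockout it was Gjc1 in replicates 1, 2 and 4, whereas in replicate 3, the library with most granulosa RNA, Gja1 led at 15.9 FPKM. The other 17 connexin genes together summed to 6.25 ± 4.42 FPKM in wild type against 3.79 ± 3.09 FPKM in knockout (SD, n = 4 each; exact permutation p = 0.371). Of these 17, only Gjb2 was high enough to be tested, and its 2.81 ± 2.61 and 1.29 ± 1.44 FPKM (SD, n = 4 each) did not differ past the threshold (log2 fold change -0.64, limma adjusted p = 0.390). In no library did another connexin reach the lowest wild-type level of Gja4. Panx1, a channel protein of the separate pannexin family, fell 7.36-fold, from 10.9, 12.8, 9.63 and 14.1 FPKM to 1.33, 2.77, 2.03 and 0.312 FPKM (log2 fold change -2.39, limma adjusted p = 0.000309).

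**Figure D3:**
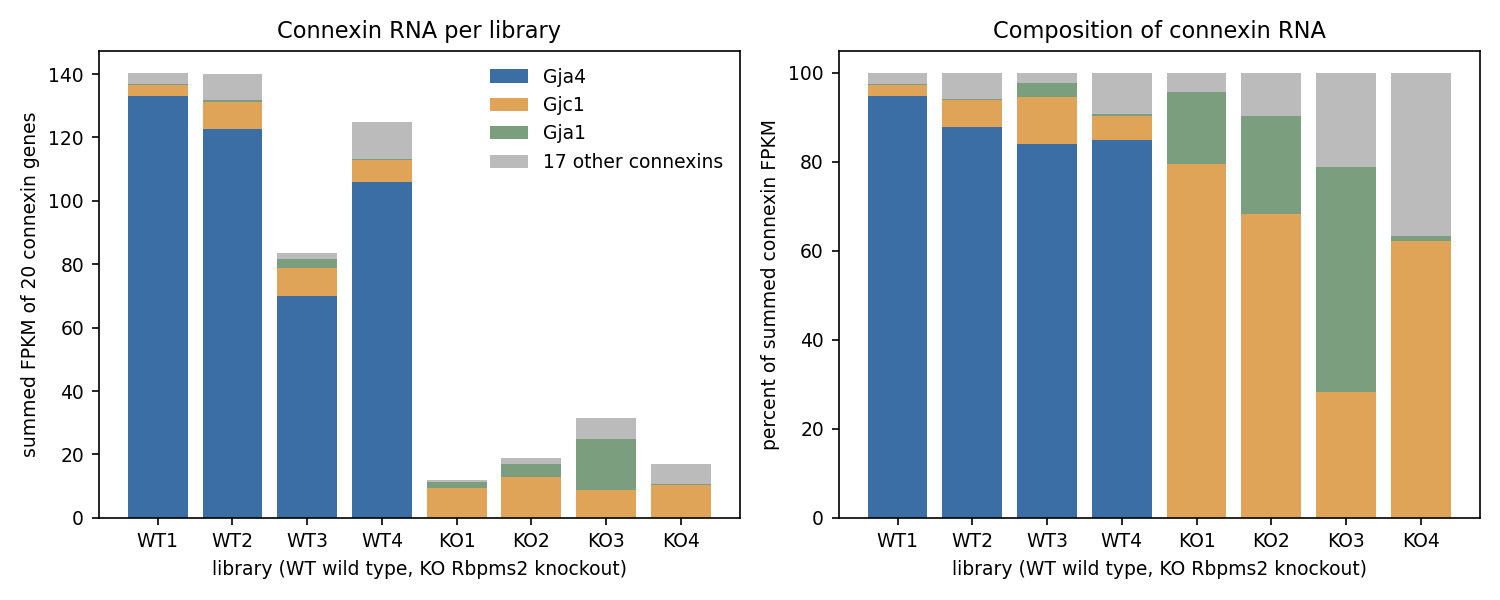
Left, summed FPKM of 20 connexin genes in each library (WT wild type, KO Rbpms2 knockout), stacked by gene; right, the same as a percent of each library's sum. Gja4 fills 84.0% to 94.9% of the wild-type bars and is missing from the knockout bars, which are shorter and mostly Gjc1, except KO3, where Gja1 is the largest piece.

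Promoter sequences show what DNA precedes the start of the genes that lost their reads and of Gja1, which did not. RefSeq entries (GRCm38.p6) were matched for 5 of the 7 genes, and Gdf9 and Gjc1 were not matched. Each line gives the 250 bases before the RefSeq start in the gene's own 5′ to 3′ direction. Capitals mark E-boxes, the letters CANNTG read on either strand (the motif is its own reverse complement), which is the kind of site bound by basic helix-loop-helix proteins such as the oocyte factor FIGLA.
Bmp15 chrX:6320725-6320974, minus strand: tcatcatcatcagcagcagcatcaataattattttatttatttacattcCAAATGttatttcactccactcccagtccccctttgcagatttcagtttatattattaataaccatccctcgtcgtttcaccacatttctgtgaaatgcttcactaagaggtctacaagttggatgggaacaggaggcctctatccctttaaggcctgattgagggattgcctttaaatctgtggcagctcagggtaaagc
Oosp1 chr19:11691052-11691301, minus strand: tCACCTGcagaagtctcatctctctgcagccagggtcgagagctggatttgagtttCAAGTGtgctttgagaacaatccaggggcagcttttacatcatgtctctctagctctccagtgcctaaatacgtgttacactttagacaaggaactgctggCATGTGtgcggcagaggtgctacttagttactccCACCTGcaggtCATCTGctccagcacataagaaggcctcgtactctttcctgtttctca
Oosp2 chr19:11660560-11660809, minus strand: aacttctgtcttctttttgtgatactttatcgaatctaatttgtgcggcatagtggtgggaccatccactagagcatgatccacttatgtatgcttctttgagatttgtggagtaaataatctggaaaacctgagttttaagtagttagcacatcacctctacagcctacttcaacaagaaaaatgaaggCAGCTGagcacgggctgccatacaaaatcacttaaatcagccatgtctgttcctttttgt
Gja4 chr4:127314040-127314289, minus strand: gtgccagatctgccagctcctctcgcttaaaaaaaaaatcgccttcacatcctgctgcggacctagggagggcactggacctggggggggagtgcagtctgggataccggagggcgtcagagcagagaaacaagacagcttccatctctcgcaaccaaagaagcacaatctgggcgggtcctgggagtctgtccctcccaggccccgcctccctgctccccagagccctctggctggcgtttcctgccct
Gja1 chr10:56377050-56377299, plus strand: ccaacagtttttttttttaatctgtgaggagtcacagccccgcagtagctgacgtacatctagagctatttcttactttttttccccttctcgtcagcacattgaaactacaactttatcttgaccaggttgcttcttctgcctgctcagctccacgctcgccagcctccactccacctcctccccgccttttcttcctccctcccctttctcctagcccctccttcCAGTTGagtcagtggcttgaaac
The RefSeq start of Oosp1 lies inside the gene as given above from GENCODE, so the last part of its window, with the 3 E-boxes nearest the start, is within that gene. The Oosp1 sequence held 5 E-boxes, those of Oosp2, Bmp15 and Gja1 held 1 each, and that of Gja4 held none. Among 32851 promoters of the same length, 66.2% held at least 1, so 4 of 5 is near the general share. The E-box of Oosp2 began 60 bases and that of Bmp15 201 bases before the start. The homeobox-type motif TAATTG was in none of the 5 on either strand (7.17% of all promoters), TGATTG was in Bmp15 alone (12.7%), and a TATAAA motif was in Bmp15 alone, on the reverse strand (12.4%). A match describes the letters in this window and nothing of binding.

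Nearby genes were read for each of the 7. None of the 7 overlapped another annotated gene, which matters because the counting is not stated to use strand. Uqcrq, a subunit of mitochondrial complex III, lies 191 bases from Gdf9 in the opposite direction and fell from 358.7 ± 79.2 to 141.4 ± 34.2 FPKM (SD, n = 4 each; log2 fold change -1.34, limma adjusted p = 0.000726), a gene picked out after its values were seen. Ms4a3, on the far side of Oosp2 from Oosp1, was at 0 in 7 of 8 libraries.

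The genes whose profile over the 8 libraries was closest to each of the tested members included known oocyte genes. Closeness was the root mean square difference of log2(FPKM + 1) after each gene's mean was removed, over 8423 genes, and it is a description. For Gdf9 these were Zp1, a protein of the egg coat (0.265), Noto (0.457) and Nlrp14 (0.457), and Gja4 was the 7th closest (0.634). For Bmp15 they were Rfpl4 (0.278), Pla1a (0.282) and Zar1, a maternal-effect gene (0.301). Rfpl4 was also among the 3 closest to Oosp2 (0.553), with the predicted gene Gm10234 (0.282) and Tcl1b3 (0.585). For Gja4 they were Oas1d (0.189), Oas1h (0.201) and Noto (0.397), of which Oas1d and Oas1h belong to a family of similar copies that could share reads. Oosp2 and its nearest gene shared the low wild-type replicate 2, where Gm10234 had 11.7 FPKM against 33.5 to 53.3 in the other wild-type libraries.

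Gja1 and Gjc1 had other neighbours. The closest to Gja1 were Igf1, a growth factor gene (0.250), Wls, needed for WNT secretion (0.332), and App (0.349). Igf1 had 0.313, 1.03, 3.60 and 0.861 FPKM in wild type and was highest in knockout replicate 3 at 20.2 FPKM, the library that was also highest for Gja1. The closest to Gjc1 were Dcp2, which removes the cap of messenger RNA (0.168), the transcription factor gene Yy1 (0.204) and the kinase gene Map3k7 (0.207).

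Several other secreted factors fell in knockout. Of 29 further TGF-beta family ligands 6 were tested, of which 3 fell and none rose, with a median log2 fold change of -1.11. The falls were 50%, against 25.6% of all tested genes. Bmp7 fell from 4.30 ± 1.84 to 0.651 ± 0.759 FPKM (SD, n = 4 each; limma adjusted p = 0.00494), and Tgfb3 from 7.60 ± 1.14 to 2.04 ± 3.44 FPKM (limma adjusted p = 0.0126), with knockout replicate 3 at 7.20 FPKM overlapping wild type. The call of Bmp6 (log2 fold change -1.52) was lost without wild-type replicate 4, without knockout replicate 1 and with a correction for GC content (up to limma adjusted p = 0.146). Of 22 FGF ligands 4 were tested and 3 fell, 75% against the same 25.6%, with a median of -1.66. Fgf21 had 1.23, 2.54, 3.24 and 29.4 FPKM in wild type and 0 in knockout (limma adjusted p = 0.0114), wild-type replicate 4 set its mean, and the call was lost with a pseudocount of 5 and without the 3 libraries rich in somatic markers. Fgf9 and Fgf22 were the other two. With a minimum of 5 FPKM only 1 TGF-beta family ligand was tested, and it was called lower, while 0 FGF ligands were tested. A rise was called for 1 TGF-beta family ligand under 7 of the 22 alternatives.

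Among enzymes that cleave the ligand precursors, Furin was the member that fell. It had 9.74, 9.95, 10.1 and 11.4 FPKM in wild type and 0.689, 1.11, 1.87 and 1.31 FPKM in knockout. The wild-type values were tight and far above those of the knockout, an 8.27-fold difference with a log2 fold change of -2.35 (standard error 0.26, limma adjusted p = 6.19e-05). The other 4 tested convertases of 5 were not called, so falls were 20%, against 25.6% of all tested genes. None of 4 tested antagonists that bind such ligands, of 11 listed, was called, though 1 was called higher under 4 of the 22 alternatives, as was 1 convertase under 3.

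Receptors and SMADs that answer GDF9 and BMP15 were mostly not called. Of 21 listed genes 16 were tested, 5 fell and none rose, 31.25% against 25.6% of all tested genes, with a median log2 fold change of -0.34. Bmpr1b fell from 3.48 ± 0.945 to 0.549 ± 0.421 FPKM (SD, n = 4 each; limma adjusted p = 0.00216), Smad3 from 11.7 ± 5.19 to 3.74 ± 4.02 (limma adjusted p = 0.0243) and Smad4, the shared partner of the SMADs, from 23.5 ± 7.24 to 11.7 ± 4.43 (limma adjusted p = 0.0241). Acvr2b and Acvr1b fell as well. Bmpr2, the type II receptor of both ligands, had a log2 difference of -0.44 (limma adjusted p = 0.336), and Tgfbr1, a type I receptor for GDF9, of 0.46 (limma adjusted p = 0.117). The count of 5 was 3 with no minimum level, and 3 of only 10 tested with one of 5 FPKM. It was 2 when any of wild-type replicates 3 and 4 and knockout replicates 1 and 4 was left out, and 1 with the GC correction. A rise was called for 1 gene under 3 of the 22 alternatives.

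RNA of junction genes moved in both directions. Of 12 tested partners of connexins and junction scaffold genes, of 16 listed, 5 rose and 2 fell, with a median log2 fold change of 0.38. The rises were 41.7% against 17.7% of all tested genes, and the falls 16.7% against 25.6%. Cdh1, the E-cadherin that joins oocytes to their neighbours, fell 32.3-fold from 12.6 ± 4.57 to 0.389 ± 0.238 FPKM (SD, n = 4 each; log2 fold change -3.24, limma adjusted p = 2.76e-05). Its cytoplasmic partners went the other way. Ctnnb1, beta-catenin, rose from 18.9 ± 2.87 to 53.0 ± 16.6 FPKM (limma adjusted p = 0.000872), and Ctnna1, alpha-catenin, from 7.93 ± 1.57 to 22.5 ± 4.84 FPKM (limma adjusted p = 0.000876). Cav1 (log2 fold change 2.93, limma adjusted p = 0.00873) had 14.7, 16.7, 30.3 and 1.25 FPKM in knockout replicates 1 to 4, and its call was lost with limma-voom on recovered reads. Endothelial, granulosa and stroma markers were also high in some of those knockout libraries, and their part in the level of Cav1 was not tested. The count of 5 rises was 3 with limma-voom, and 3 of only 7 tested with a minimum of 5 FPKM. The smaller fall, Cnst, was lost in 17 of 21 alternatives, which leaves 1.

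Genes of transzonal projections, the thin arms by which granulosa cells reach the oocyte, were all 8 tested, and 4 fell and 1 rose. These were 50% and 12.5% of the list, against 25.6% and 17.7% of all tested genes. The tubes held cells picked as oocytes, so the values do not describe the projections themselves. Which cells made this RNA was not tested. Myo10 fell from 11.8 ± 3.08 to 2.79 ± 2.15 FPKM (SD, n = 4 each; limma adjusted p = 0.00516) and Cfl1, cofilin, from 380.5 ± 64.3 to 174.9 ± 44.6 FPKM (limma adjusted p = 0.00189). Enah fell too, and the fall of Diaph1 (limma adjusted p = 0.0187) was lost without wild-type replicate 3 or 4 and with the GC correction. The single rise, Fscn1 (limma adjusted p = 0.0497), rested on 37.4 FPKM in knockout replicate 1 and was lost in 15 of 22 alternatives, among them the omission of any library other than knockout replicate 4, whereas rises numbered 2 with the GC correction.

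Genes of the cyclic nucleotide signals that keep the oocyte arrested were called lower more often than higher, as were all tested genes. Of 10 tested, 5 fell and 1 rose, with a median log2 fold change of -0.95. These were 50% and 10% of the list, against 25.6% and 17.7% of all tested genes. Gpr3, the receptor that drives cyclic AMP in oocytes, had 10.8, 5.30, 5.85 and 8.88 FPKM in wild type and 0.0938, 0, 0.307 and 0.688 FPKM in knockout. It was 28.3-fold lower (log2 fold change -2.76, standard error 0.31, limma adjusted p = 7.83e-05). Gpr3 was under 1 FPKM in every knockout library, so the minimum itself required that the genotypes not overlap. Pde3a, the phosphodiesterase that degrades cyclic AMP there, fell from 4.93 ± 1.70 to 0.730 ± 0.490 FPKM (limma adjusted p = 0.00149), and Prkaca, the catalytic subunit of protein kinase A, from 20.9 ± 1.89 to 7.21 ± 2.94 FPKM (limma adjusted p = 0.0014). Prkar1a, a regulatory subunit of the same kinase, rose 2.73-fold, from 45.8 ± 4.91 to 125.1 ± 15.1 FPKM (limma adjusted p = 9.35e-05). Nppc, the ligand of the granulosa receptor that makes cyclic GMP, fell from 8.36 ± 7.09 to 0.465 ± 0.685 FPKM (limma adjusted p = 0.00477). Falls numbered 2 with a minimum of 5 FPKM, where only 4 genes were tested. Rises numbered 2 without wild-type replicate 3 and with quantile or median-of-ratios scaling, and 3 with the GC correction and the replicate block together.

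Among receptors and ligands by which oocytes and pregranulosa cells signal to each other, Kit, Jag1 and Jag2 fell. Of 12 tested KIT and Notch genes 4 fell and 1 rose, with a median log2 fold change of -0.19. These were 33.3% and 8.33% of the list, against 25.6% and 17.7% of all tested genes. Kit, the receptor of the oocyte, had 240.4, 229.0, 171.5 and 235.2 FPKM in wild type and 15.1, 70.4, 19.3 and 24.2 FPKM in knockout (limma adjusted p = 0.000183). All knockout libraries lay far below the wild type. Jag1, a Notch ligand on the oocyte, fell 20.5-fold from 20.7 ± 5.12 to 1.01 ± 0.524 FPKM (SD, n = 4 each; limma adjusted p = 1.34e-05), and Jag2 from 35.8 ± 9.01 to 3.27 ± 2.07 FPKM (limma adjusted p = 5.01e-05). Kitl, the ligand that granulosa cells make, is itself among the 17 granulosa markers, so its level is part of their sum. It ran high where they did, 101.8 FPKM in knockout replicate 3. Kitl was not called (limma adjusted p = 0.140), except with the replicate block and without knockout replicate 4 (lowest limma adjusted p = 0.0271). Hes1, a target of Notch, rose (log2 fold change 1.86, limma adjusted p = 0.0206), a call lost with no minimum level and without wild-type replicate 1 or 4. Rises numbered 2 with the replicate block, with the GC correction and without knockout replicate 4.

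Oocyte regulators and the egg coat give the setting. Of 7 regulators of oocyte genes, Figla, Nobox, Lhx8, Sohlh1 and Tbpl2 fell, with log2 fold changes of -2.23, -3.98, -2.35 and -3.43 for the first 4, and Tbpl2 had 0 reads in knockout. The falls were 71.4% of the regulators, against 25.6% of all tested genes. Sohlh2 (log2 difference 0.63, limma adjusted p = 0.205) and Taf4b (0.45, limma adjusted p = 0.236) were not called. However, Sohlh2 was called higher without knockout replicate 3, and Taf4b without the 3 libraries rich in somatic markers. Zp1, Zp2 and Zp3 all fell, with a median of -8.94.

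**Figure D4:**
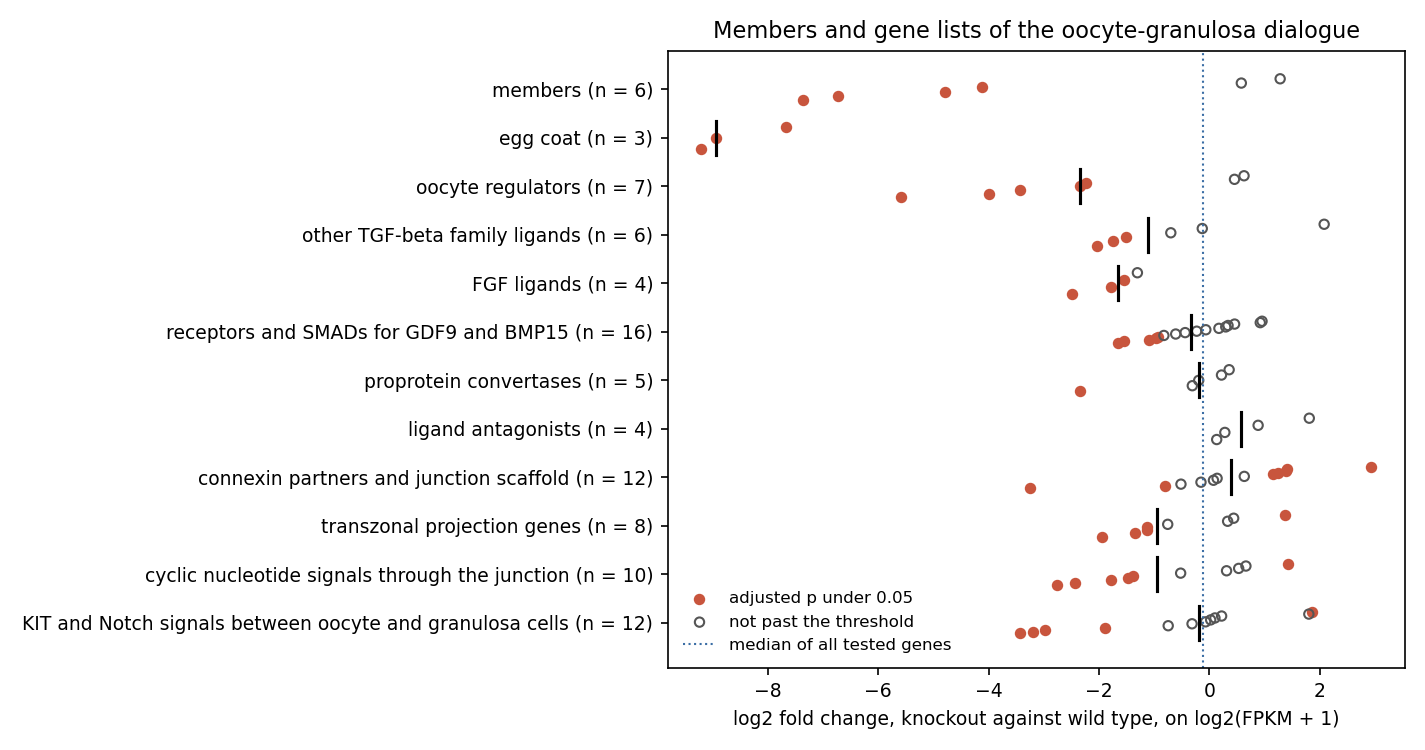
Log2 fold change, knockout against wild type on the log2(FPKM + 1) scale, for the 6 tested of the 7 genes (labelled members) and the tested genes of each list; filled points passed adjusted p under 0.05, open points did not, black bars are list medians, and the dotted line is the median of all 11235 tested genes, -0.12. Gdf9, Gja4, Oosp2 and Bmp15 lie at the low end with the egg coat genes, whereas receptors and SMADs lie nearer the median and the junction partners fall on both sides.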

How the data were processed

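RNA was measured by sequencing in 8 libraries, 4 per genotype. The authors deposited 1 table of FPKM values per gene and library, made with cutadapt, HISAT2 and HTSeq on GRCm38 (mm10) per the submitters' processing notes, whose versions and annotation the sources used here do not give. Of 21959 genes, 21902 had an exon length in GENCODE M21. FPKM times that length came in steps of 1 read (97.4% to 97.6% of nonzero values whole within 0.02 reads), which gave depths and read counts, and these served for floors, the check for duplicated libraries (chi-square per degree of freedom at least 33.6) and an added limma-voom fit. Without molecular identifiers, amplified reads are not independent molecules.

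Genes with at least 1 FPKM in 4 libraries (11235) were tested with limma 3.58.1 (R 4.3.3) on log2(FPKM + 1), with trended eBayes, a model of genotype alone and Benjamini-Hochberg adjustment over all of them. Folds are ratios of mean FPKM, and where a group had 0 reads, 3 reads over the group. Exact permutation tests were two-sided. The 7 genes and the gene lists were chosen with earlier results of these data known. Named were the 7 genes, Rbpms2, tested genes of short lists, called list genes that averaged 5 FPKM or more in the higher genotype (up to 3 per direction) and the 3 closest profiles per gene. Further list genes (Bmp6, Bmp7, Bmpr1b, Acvr1b, Bmpr2, Tgfbr1, Fgf9, Fgf22, Cnst, Enah, Pde3a, Kitl and the cell type markers) were named after their values were seen. Amhr2, Inha, Fst, Amh and Kitl stand both in a list and among granulosa markers.

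Alternatives were pseudocounts of 0.1 and 5, no minimum or 5 FPKM, 3 other scalings (quantile, equal totals, median-of-ratios), a replicate block, eBayes without trend or robust, and each library left out. Added after seeing the data were limma-voom, a GC correction (loess, span 0.5) and the correction and block together. The omission of the 3 libraries with most granulosa and stroma marker RNA was added then too. The steps were tested on simulated data. Tables came from pandas 2.3.3 and numpy 2.4.6 under Python 3.11.15, figures from matplotlib 3.10.9.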

Additional observations from a re-analysis of the deposited data

Results flagged for a closer look

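Of 105 groups of 4 libraries examined for the 7 genes, the connexin shares, the marker means and the named list genes, 12 had a library set apart from the other 3 by most of the group's range. Chance gives about 1 in 20 for normally distributed values, which FPKM need not be. Where the other 3 libraries are at 0, any nonzero value stands apart by the whole range. The count of 12 is thus no test of an excess. Bmp15 had 34.4 FPKM in wild-type replicate 4, against 12.0 to 13.5 FPKM in the other wild-type libraries. Gja1 had 2.76 FPKM in wild-type replicate 3, where its share of connexin RNA was 3.31%, and Cav1 stood apart in the same library at 3.03 FPKM. Jag1 (13.1 FPKM) and Kit (171.5 FPKM) also stood apart in that library, but as low values, whereas Gja1 was high there. Fgf21 had 29.4 FPKM in wild-type replicate 4. In knockout, the endothelial marker mean was 4.14 in replicate 1 on the log2(FPKM + 1) scale, Kit had 70.4 FPKM in replicate 2 and Tgfb3 7.20 FPKM in replicate 3. Zp1 had 0.432 FPKM in knockout replicate 1 and 0 in the other knockout libraries, and Zp2 had 0.960 FPKM in knockout replicate 4 and 0 in the other knockout libraries.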

How the results depend on the processing

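Gdf9, Bmp15, Oosp2 and Gja4 were called lower under each of the 22 alternatives, with log2 fold changes of -9.94 to -5.37, -10.18 to -2.12, -8.66 to -2.72 and -12.04 to -4.46, and Gjc1 under none (limma adjusted p from 0.0553 to 0.319). Gja1 had values of 0.49 to 2.54 under 21 alternatives and was not tested with a minimum of 5 FPKM. With the replicate number as a block 1 of the 7 genes was called higher, Gja1 (limma adjusted p = 0.0402), against 0 without the block, and leaving out each library gave 0 to 1. The block gave 2113 genes higher and 2921 lower, against 1991 and 2880, and changed no other call among the 7 genes. The numbers need not pair the tubes, since same-numbered deviations correlated at 0.185, 0.0158, 0.361 and -0.053, and only replicate 3 was closest to its own number. Oosp1 was tested only with no minimum (log2 fold change -2.68, limma adjusted p = 0.0459). Leaving out each library moved the knockout minus wild-type difference in connexin share between -89.2 and -85.6 percentage points for Gja4 (-87.9 with all), 46.8 and 63.8 for Gjc1 (53.4 with all) and 12.2 and 28.6 for Gja1 (21.5 with all, adjusted exact permutation p = 0.0571, and 0.0286 without knockout replicate 4). Without the 3 libraries rich in somatic markers the differences were -89.2 for Gja4, 66.2 for Gjc1 and 8.43 for Gja1, and the smallest p possible there is 0.1. Without any 1 wild-type library the adjusted p of the Gja4 and Gjc1 shares was 0.0571 to 0.0857, and without any 1 knockout library it was 0.0286 to 0.0429 (exact permutation). The cause of these changes was not tested. Depth limits the 4 genes with 0 knockout reads to a lower bound.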
